A study of Mus musculus with 45 samples.

Results

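The region is the 1 Mb window chr5:113000000-114000000 of the mouse genome, build mm9, and holds every acetylated domain of the deposited domain list whose midpoint lies in it. These are 46 of 44165 domains. The window was selected on losses of acetylation in the disease models, so those losses are the values that chose it. Which of the disease comparisons supplied them is not recorded. Differences at 11 months in tau mice and at both times in CK-p25 mice, and every comparison that uses libraries of those groups, are therefore given as descriptions. Where calls from the fit over all domains are printed for them, the calls describe the domains and carry no evidence about the region. Tau mice at 6 months had no domain past the threshold anywhere in the genome, so that comparison could not have supplied the losses and was tested.

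The mark is acetylation of lysine 9 of histone H3 (H3K9ac), measured by chromatin immunoprecipitation and sequencing in hippocampus. Histone acetyltransferases place this mark and histone deacetylases remove it. It is found at active promoters and enhancers, and wide stretches of it are known from genes that a tissue transcribes strongly. In the hippocampus its level is studied as a readout of neuronal gene activity. The domains could not be paired with genes here, because no mm9 annotation was used, nor was the tissue label checked against marker genes, and they are named by the identifiers of the deposited list and by mm9 positions counted from 1.

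A pair of mouse models was profiled in 23 H3K9ac libraries that form 8 groups. Mice transgenic for human tau with the P301S mutation had wild type controls at both ages, with 2 tau and 3 wild type libraries from females at 6 months and 3 of each from males at 11 months, so age and sex change together in that series. CK-p25 mice are double transgenic animals in which p25, a fragment that activates the kinase Cdk5, is switched on. In this model expression is directed to forebrain neurons by the Camk2a promoter, as background knowledge, and the labels name no promoter for either model. Female CK-p25 mice were compared with control littermates labelled CK, 2 weeks after induction at 3.5 months of age and 6 weeks after induction at 4.5 months (3 libraries in each of these groups), so age and time after induction change together. The 2 series used different lots of the same antibody and are not compared in level. Whether libraries come from different animals is not stated in the labels, so a p-value here measures the spread between libraries, which may be technical. In whole hippocampus, fewer cells of a type and less mark per cell cannot be told apart.

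The reads of a library that fell in domains numbered 4097974 to 6181925 in the tau series and 996369 to 4133003 in the CK-p25 series. The shallowest libraries were CK replicate 3 and CK-p25 replicate 3 at 6 weeks, with 996369 and 1308372 reads. All 22 pairs of replicates within a group differed by more than counting noise, their chi-square divided by its degrees of freedom lying between 1.10 and 1.88. Levels below are counts per 1000000 reads (CPM) after trimmed-mean scaling over all domains. A log2 change is the disease group minus its control, with its standard error (SE). A domain was called where the adjusted p of edgeR's quasi-likelihood test, adjusted over all domains tested, was under 0.05.

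The 46 domains covered 47.3 kb, or 4.73% of the window. Their widths ran from 128 to 4936 bp, with a median of 616 bp against 776 bp over all domains. Per length, the region was not densely acetylated: its domains had a median level of 9.68 CPM per kb, against 10.6 CPM per kb over all domains, and a range of 7.23 to 28.3. The widest domain held 19.1% of the region's reads, and the 3 widest, which cover 13.8 kb, held 49.2%. These shares were not compared with those of other windows. Of 2280 windows of 1 Mb that held a domain, 257 held more domains than this one.

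Along the chromosome the domains fell into 7 runs, with a new run begun wherever the gap to the previous domain was over 50 kb. This division was made after the positions were seen. The first run was a single domain at the window's left edge, and the largest gap, 262 kb without any domain, followed the second run, a group of 4 narrow domains. The longest run, at chr5:113508658-113656302, held 22 domains and 39.7% of the reads. The next run, at chr5:113716315-113840364, held 11 domains and 16.4% of the reads, and the last run, at chr5:113890613-113993550, held 6 domains and also 16.4%.

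Within the tau series, the summed level of the region was lowest in tau mice at 11 months. For this sum, reads were added over the domains of each 1 Mb window and libraries were scaled over all windows. At 11 months the wild type libraries read 806, 806 and 759 CPM and the tau libraries 594, 636 and 565 CPM, or 790 ± 27.4 against 599 ± 35.5 (SD, n = 3 each). The 2 groups did not overlap. At 6 months the wild type libraries read 743, 747 and 750 CPM and the tau libraries 770 and 773 CPM. Both tau libraries lay above all 3 wild type libraries.

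In the CK-p25 series the disease groups were lower by less. At 2 weeks the CK libraries read 763, 822 and 769 CPM and the CK-p25 libraries 758, 719 and 634 CPM, or 785 ± 32.1 against 704 ± 63.4 (SD, n = 3 each). All CK-p25 libraries lay below all CK libraries, the closest by 4.95 CPM. At 6 weeks the CK libraries read 722, 743 and 827 CPM and the CK-p25 libraries 637, 693 and 618 CPM, or 764 ± 55.7 against 649 ± 38.8 (SD, n = 3 each). These groups also did not overlap. In order of level in the tau series, wild type at 11 months overlapped with tau at 6 months, while wild type at 6 months and tau at 11 months each stood apart from the group above. In the CK-p25 series every neighbouring pair in the order CK at 2 weeks, CK at 6 weeks, CK-p25 at 2 weeks and CK-p25 at 6 weeks overlapped.

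**Figure D1:**
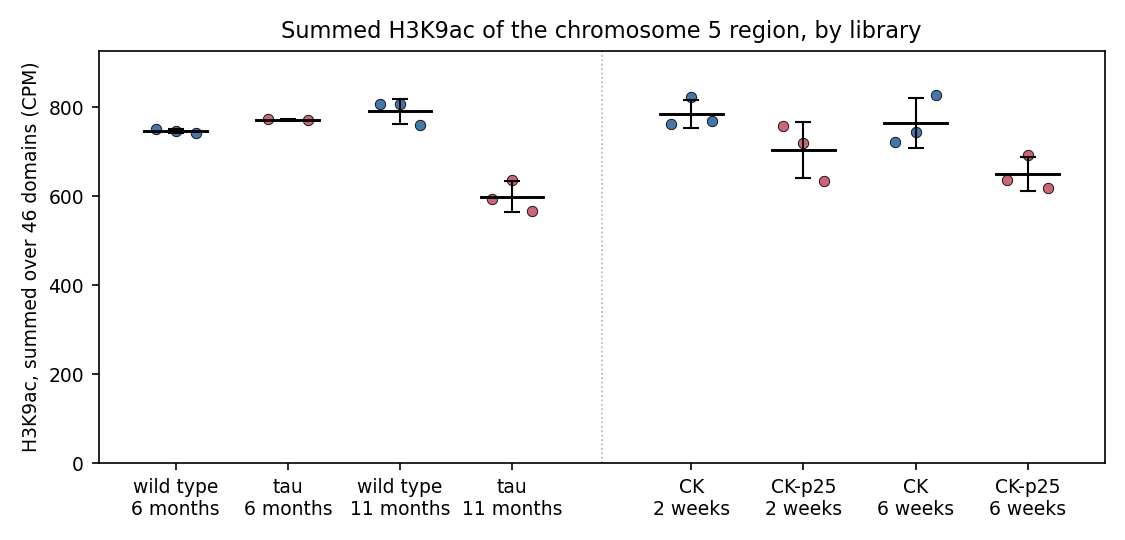
Summed H3K9ac of the 46 domains in each of 23 libraries (CPM, vertical axis) by group, with the mean as a line and 1 SD as bars; blue points are controls and red points disease groups, and the dotted line separates the 2 series. The 3 tau libraries at 11 months lie between 565 and 636 CPM, below every other library of the tau series.

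As a log2 change, the region's sum was 24.4% lower in tau mice at 11 months, at -0.40 ± 0.03 (SE). This was the 149th lowest change among 2279 windows tested, of which 23.3% were called lower. The change was -0.16 ± 0.06 at 2 weeks and -0.21 ± 0.07 at 6 weeks in CK-p25 mice, where the region ranked 196th and 247th lowest of 2266 windows. Neither of these sums was called (adjusted p of 0.215 and 0.0598 in edgeR's quasi-likelihood test). At these 2 times 1.06% and 6.31% of all windows were called lower. The 2-week change rests in part on 1 library: without CK-p25 replicate 3 it was -0.09, and over all libraries left out in turn it ran from -0.21 to -0.09. The tau and CK-p25 comparisons share no library.

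At 6 months the tau effect on the sum was +0.05 ± 0.03 on the log2 scale, with a 95% interval of -0.02 to 0.12. The unadjusted p of edgeR's quasi-likelihood test was 0.179 and the adjusted p 0.997. The tau effect at 11 months minus that at 6 months was -0.45 ± 0.05. This difference contains the 11-month losses that may have chosen the region, which favours a negative value, and it is given as a description.

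The adjoining windows had smaller changes, of opposite sign on the 2 sides in tau mice at 11 months. The adjoining 1 Mb window before the region, with 57 domains, changed by -0.20 ± 0.03 in tau mice at 11 months, and 8 of its domains were called lower, where 7.56% of all domains were. The adjoining window after it, also with 57 domains, changed by +0.08 ± 0.02, with 1 domain called lower and 3 higher, where 4.40% of all domains were called higher. In CK-p25 mice the window before changed by -0.10 ± 0.04 at both times, while the window after changed by +0.10 ± 0.03 at 2 weeks and +0.12 ± 0.04 at 6 weeks. In all 3 comparisons the region's change was below those of both adjoining windows.

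Of the 46 domains, 9 were called lower and 0 higher in tau mice at 11 months. Over all 44105 domains tested, 7.56% were called lower and 4.40% higher. The log2 change was negative for 31 of the 46, where it was for 49.0% of all domains. Its median was -0.28, against 0.0063 over all domains. For 17 domains every tau library lay below every wild type library, and for 3 every tau library lay above, where the shares over all domains were 13.8% and 11.2%. These calls belong to a comparison that may have chosen the region, and nothing is read from them.

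In tau mice at 6 months no domain of the 46 was called in edgeR, where the share over all domains was 0%, and none in DESeq2. At an unadjusted p under 0.05 there were 4 domains, against 3.23% of all domains. The median log2 change of the 46 was 0.07, against -0.0027 over all domains. The tau libraries lay wholly above the wild type for 10 domains and wholly below for 4, where the shares over all domains were 9.63% and 10.1%. Of the 4 domains at an unadjusted p under 0.05, peak12406 at chr5:113589608-113591727 (+0.44 ± 0.18) and peak12401 were higher in tau, and peak12393 at chr5:113509133-113509278 (-1.20 ± 0.53) and peak12388 were lower.

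In CK-p25 mice 38 of the 46 domains had enough reads to be tested, and the other 8 are without a log2 change in those comparisons. At 2 weeks 1 domain was called lower and 0 higher, against 0.613% and 1.51% of all 38193 domains tested. At 6 weeks 2 domains were called lower and 0 higher, against 1.33% and 1.32%. The median log2 change was -0.09 at 2 weeks, with 24 of 38 negative, and -0.19 at 6 weeks, with 21 of 38 negative. Over all domains the medians were -0.0035 and -0.0020, with 50.7% and 50.3% negative. The CK-p25 libraries lay wholly below the CK libraries for 5 domains at 2 weeks (7.46% over all domains) and 7 at 6 weeks (8.46%), and wholly above for 1 (8.25%) and 5 (8.81%).

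**Figure D2:**
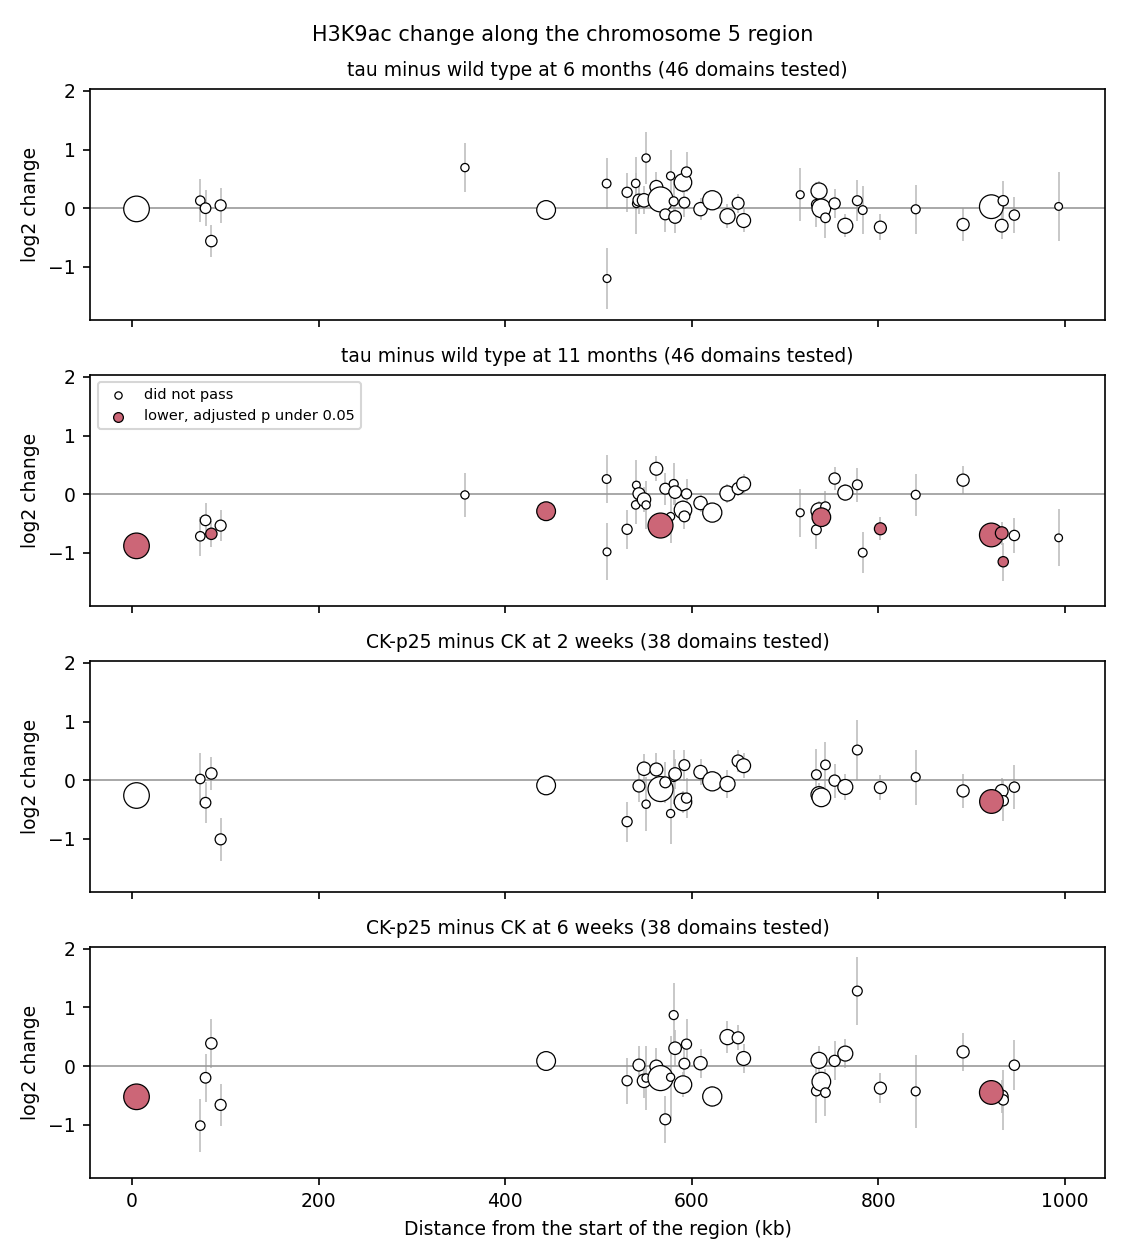
Log2 change of each domain (vertical axis, bars are 1 SE) by its distance from the start of the window in kb (horizontal axis) for the 4 comparisons; point area grows with width and red points were called lower. At 11 months the 9 called domains are spread from the left edge to the right part of the window, while a run of mostly narrow domains near its middle lies on both sides of 0.

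Both domains called in CK-p25 mice were also among the 9 called in tau mice. At 2 weeks the shared domain was 1 of 1 called in CK-p25 and 11.1% of those called in tau, and at 6 weeks the shared domains were 2 of 2 and 22.2%. Over all domains tested in both series, 93.2% of those called lower in CK-p25 mice at 2 weeks and 87.2% at 6 weeks were also called lower in tau mice at 11 months. Of those called lower in tau mice, 6.73% and 13.6% were also called lower in CK-p25 mice at 2 and 6 weeks. The other 7 of the 9 were called in tau mice at 11 months alone, and whether their CK-p25 effect differs from their tau effect was not tested.

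The widest domain, peak12385 at chr5:113002238-113007173, is 4936 bp wide, had the highest level of the region at 28.3 CPM per kb, and starts 2.24 kb after the left edge of the window. At 11 months it read 166, 160 and 157 CPM in wild type and 86.3, 107 and 71.8 CPM in tau libraries. At 6 months it read 161, 160 and 155 CPM in wild type and 159 and 156 CPM in tau libraries. The groups stood apart at 11 months and overlapped at 6 months.

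The tau change of this domain was -0.88 ± 0.08 at 11 months and -0.01 ± 0.08 at 6 months (log2, SE). In the CK-p25 series it read 144, 161 and 175 CPM in CK and 139, 135 and 124 CPM in CK-p25 libraries at 2 weeks. At 6 weeks it read 142, 162 and 170 CPM in CK and 106, 121 and 89.6 CPM in CK-p25 libraries. The groups did not overlap at either time. The log2 change was -0.26 ± 0.08 at 2 weeks, which was not called, and -0.52 ± 0.09 at 6 weeks, which was.

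The second widest, peak12401 at chr5:113564248-113568917, is 4670 bp wide and is the tallest of the 22-domain run. It read 139, 140 and 131 CPM in wild type and 93.8, 101 and 89.1 CPM in tau libraries at 11 months. At 6 months it read 133, 119 and 127 CPM in wild type and 143 and 137 CPM in tau libraries, so tau was below wild type without overlap at 11 months and above it without overlap at 6 months. The log2 change was -0.53 ± 0.06 at 11 months and +0.15 ± 0.07 at 6 months, the latter with an unadjusted p of 0.0287 in edgeR that did not survive adjustment. In CK-p25 mice the change was -0.15 ± 0.08 at 2 weeks and -0.20 ± 0.09 at 6 weeks, neither of them called.

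The third, peak12426 at chr5:113919222-113923405, is 4184 bp wide and was called lower in 3 of the 4 comparisons. At 11 months it read 122, 122 and 105 CPM in wild type and 69.9, 80.5 and 66.4 CPM in tau libraries. At 6 months it read 109, 88.5 and 96.6 CPM in wild type and 93.2 and 107 CPM in tau libraries. These groups overlapped at 6 months and stood apart at 11 months, with changes of +0.03 ± 0.08 and -0.70 ± 0.07.

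In the CK-p25 series peak12426 read 96.0, 112 and 104 CPM in CK and 88.8, 83.2 and 70.5 CPM in CK-p25 libraries at 2 weeks. At 6 weeks it read 95, 101 and 100 CPM in CK and 68.7, 82.4 and 59.5 CPM in CK-p25 libraries. No CK-p25 library reached the lowest CK library at either time. The log2 change was -0.36 ± 0.09 at 2 weeks and -0.45 ± 0.10 at 6 weeks. The call at 2 weeks was lost without CK replicate 2 or CK-p25 replicate 3 of that time (changes of -0.29 in each case), and the call at 6 weeks was lost without CK-p25 replicate 1 (-0.40). Leaving out both shallow libraries of 6 weeks also ended the 6-week call (-0.38), and DESeq2's Wald test did not make the 2-week call (-0.36).

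**Figure D3:**
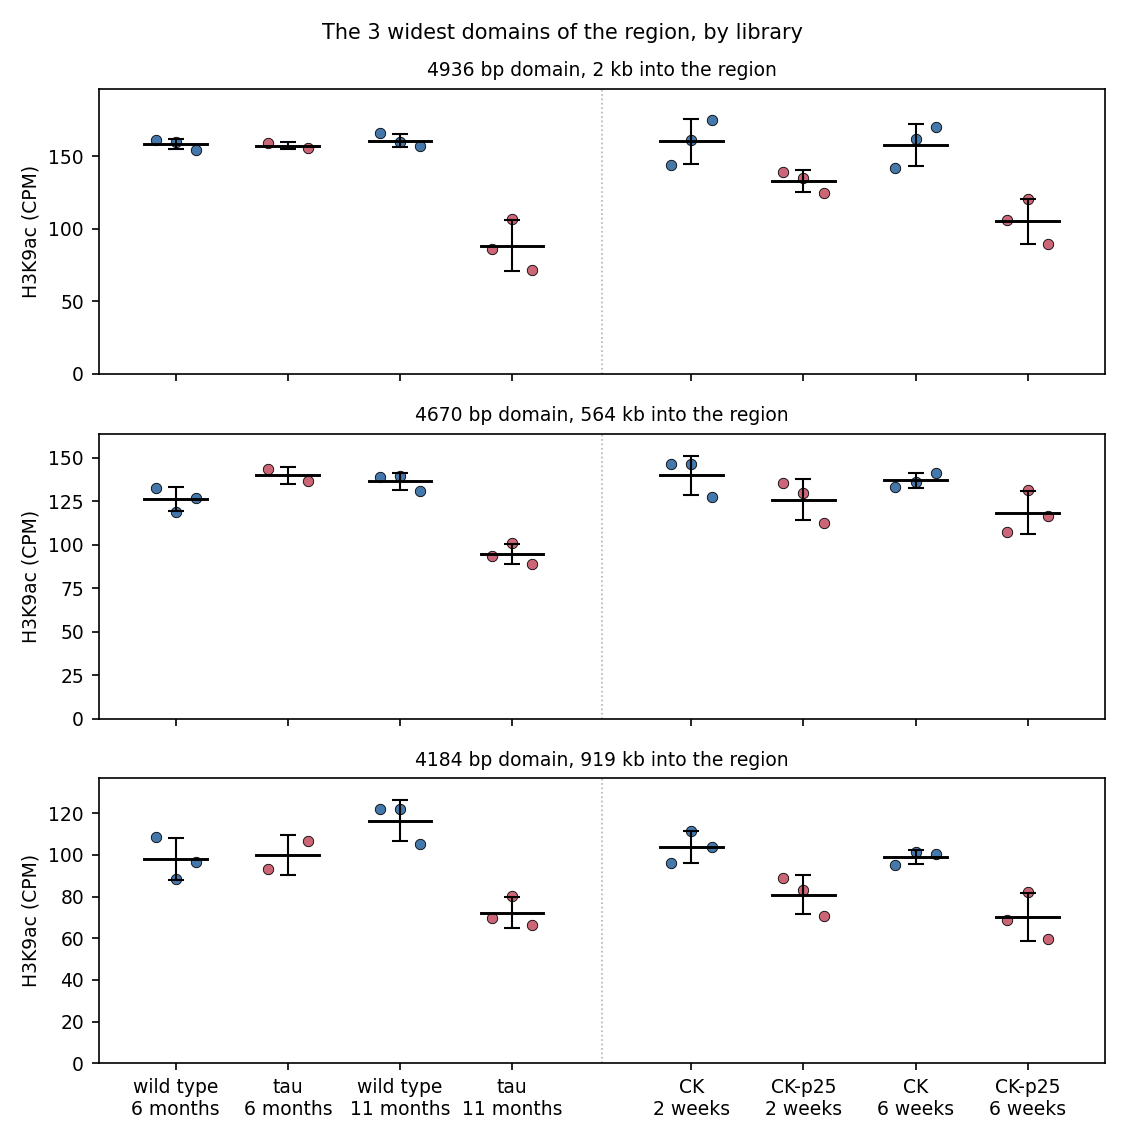
H3K9ac of the 3 widest domains in each library (CPM, vertical axis) by group, with mean and SD; blue points are controls and red points disease groups. In all 3 panels the tau libraries at 11 months lie below every other library of the tau series, and CK-p25 libraries at 6 weeks lie below CK libraries of the same time.

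Another wide domain, peak12417 at chr5:113737801-113740249 (2449 bp), read 60.8, 61.5 and 56.9 CPM in wild type and 48.7, 49.9 and 38.5 CPM in tau libraries at 11 months. Its groups stood apart, with a change of -0.39 ± 0.08. At 6 months its change was -0.0022 ± 0.10. In CK-p25 mice it was lower without overlap at both times, by -0.29 ± 0.11 and -0.26 ± 0.13, neither of them called.

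Also called at 11 months, peak12391 at chr5:113442669-113445157 (2489 bp), stands alone in its run. It read 41.2, 39.3 and 40.3 CPM in wild type and 32.9, 34.9 and 31.5 CPM in tau libraries at 11 months, a change of -0.29 ± 0.09 with no overlap. At 6 weeks after p25 induction its groups overlapped, and the change was +0.09 ± 0.14.

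The other 4 called domains were narrower and rest on few reads. Peak12428 at chr5:113933819-113934323 (505 bp) had the largest loss of the region, with 5.77, 3.70 and 4.23 CPM in wild type and 2.19, 1.45 and 2.39 CPM in tau libraries at 11 months, a change of -1.15 ± 0.33. Its counts over all 23 libraries ran from 1 to 35 reads. Its neighbour peak12427 at chr5:113931982-113932935 (954 bp) read 12.2, 11.1 and 9.43 CPM in wild type and 6.94, 8.0 and 5.89 CPM in tau libraries, a change of -0.66 ± 0.20. Both lie in the run of peak12426, which thus held 3 of the 9 called domains.

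Peak12423 at chr5:113801940-113802745 (806 bp) changed by -0.59 ± 0.19 at 11 months. Peak12388 at chr5:113084603-113085292 (690 bp) changed by -0.68 ± 0.22 at 11 months and by -0.56 ± 0.28 at 6 months, where its unadjusted edgeR p was 0.0484. It was thus lower in tau without overlap at both ages. None of these 4 narrower domains was called in CK-p25 mice. At 11 months the calls of peak12385, peak12401, peak12426 and peak12417 held without any 1 library, whereas each of the other 5 was lost without at least 1. Peak12427, peak12391, peak12423 and peak12388 lost theirs without tau replicate 3 (changes of -0.55, -0.25, -0.46 and -0.46), and peak12428 without wild type replicate 1 (-0.94).

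No domain was called higher. The largest gain at 11 months was at peak12400, chr5:113561639-113562622 (984 bp), 1.63 kb before peak12401. It read 6.59, 8.56 and 5.20 CPM in wild type and 8.58, 10.2 and 8.65 CPM in tau libraries, a change of +0.43 ± 0.21 that was not called, although the lowest tau library lay above the highest wild type library by a small margin. In value these neighbours differed in opposite directions.

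Peak12412 at chr5:113649377-113650171 (795 bp), chosen after its values were seen, was the tallest narrow domain at 22.9 CPM per kb. Its change was +0.10 ± 0.13 in tau mice at 11 months, +0.33 ± 0.19 at 2 weeks and +0.48 ± 0.21 at 6 weeks in CK-p25 mice. All 3 comparisons had every disease library above every control library, and none of them was called. The margin at 11 months was small, with the lowest tau library at 19.89 CPM and the highest wild type library at 19.77 CPM. Such separation was seen for 11.2% of all domains at 11 months, 8.25% at 2 weeks and 8.81% at 6 weeks, so nothing is read from it.

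The domains were also divided by width. Of all domains the widest 25% measure at least 1684 bp, and 8 of the 46 belong to them. This division by width was chosen after the values were seen. At 11 months 5 of these 8 were called lower, where 18.5% of all domains of that width were. All 8 had a negative change, where 55.2% of all domains of that width had one. Of the other 38, 4 were called lower and 23 had a negative change. Of all narrower domains 3.90% were called lower and 47.0% had a negative change. The 3 wide domains that were not called, peak12406, peak12410 and peak12416, changed by -0.27 ± 0.17, -0.31 ± 0.13 and -0.28 ± 0.16. A narrow domain has few reads and a larger SE, so the counts of calls in the 2 classes do not show that their changes differ, and that difference was not tested. Over the 46 domains the rank correlation of width with the log2 change was 0.05 (Spearman, across domains that share libraries, with no test), against -0.09 over all 44105 domains.

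Most of the reads lost belonged to the wide domains. Summed over members, the 8 wide domains read 566 ± 26.2 CPM in wild type and 376 ± 38.3 CPM in tau mice at 11 months (SD, n = 3 each), 33.5% lower. The 38 narrower domains read 234 ± 7.74 and 211 ± 5.17 CPM, 9.70% lower, and neither sum had overlapping groups. The wide domains carried 89.3% of the region's difference at 11 months, 97.3% at 2 weeks and 95.6% at 6 weeks. Of the region's level in the matching controls they held 70.8% at 11 months, 72.4% at 2 weeks and 71.7% at 6 weeks, which are the shares that an equal relative loss in every domain would give. In CK-p25 mice the narrower domains were 1.11% lower at 2 weeks and 2.61% lower at 6 weeks, with overlapping groups. At 6 months the wide domains read 535 ± 11.0 CPM in wild type (n = 3) and 559 ± 5.87 CPM in tau mice (n = 2), 4.52% higher with no overlap.

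**Figure D4:**
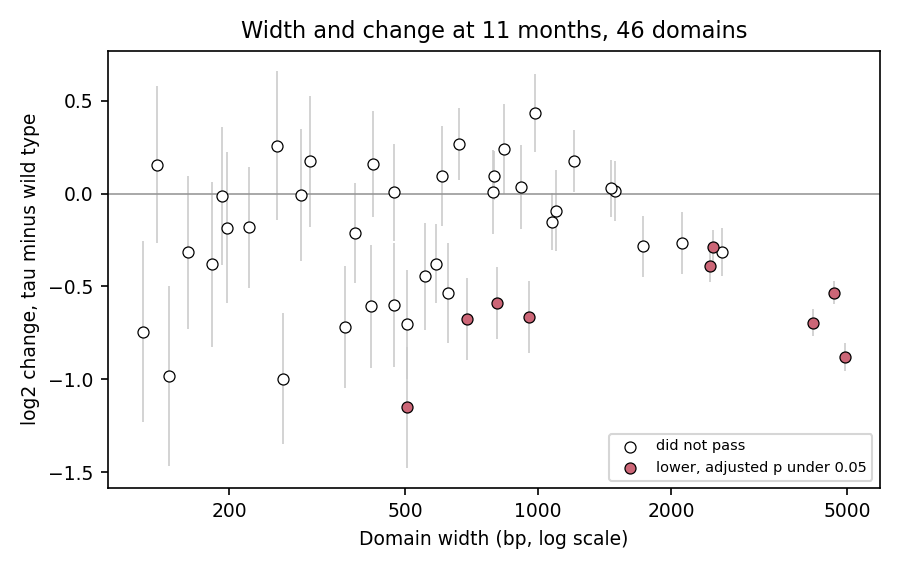
Log2 change in tau mice at 11 months (vertical axis, bars are 1 SE) by domain width (bp, log scale) for the 46 domains, with red points called lower. All 8 domains of at least 1684 bp lie below 0, while 15 of the 38 narrower ones lie above it. Over all domains 55.2% of those at least 1684 bp wide and 47.0% of the narrower ones had a negative change.

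By run, the loss at 11 months was deepest at both ends of the window, but this order depends on how the runs were cut. The last run is separate only by a gap of 50248 bp, just over the 50 kb cutoff. Most of its fall, from 144 CPM in wild type to 91.4 CPM in tau mice, was that of peak12426, from 116 to 72.3 CPM. The single domain of the first run was 45.1% lower in tau than in wild type, the 4 domains of the second run 33.4% lower in sum, and the 6 domains of the last run 36.4% lower. The run of peak12391, the 22-domain run and the 11-domain run were 17.9%, 16.8% and 17.1% lower. Groups did not overlap in any of these 6 runs, while the single 193 bp domain between the gaps, peak12390, was 1.44% lower with overlap. In the 22-domain run the summed loss came beside an even split of its domains, with 11 of 22 negative and 1 called, which is peak12401.

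In CK-p25 mice the runs ranked differently in value at the 2 times. Most runs overlapped with their controls, some margins between runs were small, and a difference in order was not tested. At 6 weeks the first run was 33.3% lower, the second 33.4% and the last 27.3%, each without overlap, while the other runs overlapped with their controls. At 2 weeks the first and the last run were 17.1% and 20.7% lower without overlap, while the second run was 20.4% lower with overlap. Peak12390 was 19.9% lower with overlap, but it had too few reads to be tested. It held 9, 12 and 3 reads in CK and 13, 8 and 4 reads in CK-p25 libraries at that time. In tau mice at 6 months the 22-domain run was 9.48% higher without overlap. The groups of peak12390 also did not overlap, but it rests on 14 and 18 reads in tau and 9, 7 and 13 reads in wild type libraries, and its log2 change of +0.69 ± 0.42 had an unadjusted p of 0.103 in edgeR's quasi-likelihood test. The other 5 runs overlapped.

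No domain spans an edge of the window. The last domain before the window, peak12384 at chr5:112989567-112990430 (864 bp), read 6.95 ± 0.713 CPM in wild type and 3.90 ± 1.18 CPM in tau mice at 11 months (SD, n = 3 each), a change of -0.86 ± 0.25 that was called lower. The first inside is peak12385, described above. At the right edge the last domain inside, peak12430 at chr5:113993423-113993550 (128 bp), changed by -0.74 ± 0.49, and the first outside, peak12431 at chr5:114027243-114027495 (253 bp), by -0.31 ± 0.31, and neither was called. Neither of these last 2 was tested in CK-p25 mice for want of reads.

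Between controls of different age no domain of the region was called. The sum in wild type mice was 0.08 ± 0.03 higher at 11 than at 6 months on the log2 scale (adjusted p = 0.0999 in edgeR's quasi-likelihood test), and the 0 calls among the 46 domains stand against 0.959% of all domains called higher and 0.487% lower. At an unadjusted p under 0.05 there were 4 domains, against 12% of all domains, and DESeq2 called none. This comparison shares its libraries with both tau comparisons, so it too is a description. Between CK mice at 6 and 2 weeks the sum changed by -0.06 ± 0.07, and no domain was called, against 0.00262% of all domains called higher and 0% lower, with 1 domain at an unadjusted p under 0.05 (5.51% of all domains) and none in DESeq2.

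Given as a description, since it contains the 11-month losses, the difference between the 2 tau effects was called for 3 of the 46 domains, all with a lower effect at 11 months, against 3.21% of all domains called lower and 1.02% higher. These were peak12385, peak12401 and peak12426, with differences of -0.87 ± 0.11, -0.68 ± 0.09 and -0.72 ± 0.11 on the log2 scale. For the CK-p25 effect at 6 against 2 weeks, no domain was called (0.00524% of all domains called lower) and the sum differed by -0.06 ± 0.09, with a 95% interval of -0.26 to 0.14. At an unadjusted p under 0.05 there were 2 domains, against 4.76% of all domains, and DESeq2 called none.

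The strand cross correlation that the labels give for each library, a measure of enrichment in the immunoprecipitation, moved with genotype at 11 months. It was 0.313 ± 0.0250 in wild type and 0.228 ± 0.0263 in tau libraries (SD, n = 3 each), without overlap, and 0.245 and 0.243 at 6 months. Wild type libraries also stood apart by age, at 0.242 to 0.248 and 0.296 to 0.342. Tau libraries at 11 months overlapped with both 6-month groups. Mean values for CK and CK-p25 libraries were 0.138 and 0.167 at 2 weeks, and 0.0928 and 0.131 at 6 weeks, overlapping each time. Cross correlation and genotype thus changed together at 11 months and cannot be told apart there. The wild type age comparison and the difference between the 2 tau effects share this limit. Values with cross correlation as a covariate are therefore given as descriptions. With it the sum at 11 months changed by -0.39. Peak12385, peak12401 and peak12426 changed by -0.91, -0.52 and -0.74 and were called. With the covariate 3 domains were called in place of 9. The change of peak12428 moved to -0.10, that of peak12427 to -0.29, that of peak12417 to -0.24, that of peak12423 to -0.37, that of peak12391 to -0.25 and that of peak12388 to -0.88.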

How the data were processed

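Reads of each H3K9ac library were counted by the authors over 1 common list of domains, and the deposited matrix holds these raw counts, per the labels' design text. BWA, Picard 1.1175 and MACS2 and the build mm9 are named in the submitters' processing notes. Pooling of libraries for peak calling: not given in the sources used here. The 22 input libraries have no column and were not analysed here. Members and lists were chosen with earlier results of these data known.

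Each series (11 tau and 12 CK-p25 libraries) was fitted as a whole with edgeR 4.0.16 (R 4.3.3) after filterByExpr and TMM scaling, with quasi-likelihood tests and Benjamini-Hochberg adjustment over all domains, and again on counts summed per 1 Mb window. The code was tested on simulated data for the sign and fold of planted changes and the share of false calls. An earlier rule, on how many planted changes were called, failed in the CK-p25 series and was replaced. Figures were drawn with Python 3.11.15. Domains named are those past the threshold of 0.05 in any disease comparison, the 3 highest and 3 widest, the largest gain and loss at 11 months and the first domain outside each edge. Those named outside this rule were chosen after their values were seen.

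Alternatives were DESeq2 1.42.0 (size factors, Wald test), library totals, no filter, a replicate block, cross correlation as a covariate, only the groups compared, a window widened by 0.5 Mb, and each library left out. Same-numbered libraries of paired groups had correlations of -0.01 to 0.08 over 11 pairs, so the numbers were not taken to pair libraries.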

Additional observations from a re-analysis of the deposited data

Results flagged for a closer look

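4 results are listed because the tau effect at 11 months minus that at 6 months was called in edgeR's quasi-likelihood fit. They are descriptions only: the 11-month losses may have chosen the region, which favours a negative difference in advance, so the calls are no evidence that the effect differs between ages. These were the region's sum (-0.45 on the log2 scale), peak12385 (-0.87), peak12401 (-0.68) and peak12426 (-0.72). In each of the 3 domains all 3 tau libraries at 11 months lay below all wild type libraries of that age. Age and sex also change together in this comparison and cannot be told apart. No group has 4 libraries, so no single library was compared with the spread of its group.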

How the results depend on the processing

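The lower sum in tau mice at 11 months kept its direction and side of the threshold under every alternative in which a sum was fitted. Without each library in turn it ran from -0.45 to -0.36. For the widened window only called domains were counted, and no sum was fitted. Its 9 called domains became 4 in DESeq2's Wald test, 3 with cross correlation as a covariate, 5 to 8 without 1 library (5 without tau replicate 3), and 18 (15 lower, 3 higher) in the widened window. The widened window holds more domains than the 46, so its counts here and below have a larger base. Over all domains 7.56% were called lower and 4.40% higher at 11 months. The shares were 0.613% and 1.51% at 2 weeks and 1.33% and 1.32% at 6 weeks. For the difference between the tau effects they were 3.21% and 1.02%. For CK-p25 at 2 weeks the 1 call became 0 in DESeq2's Wald test, 2 with only the groups compared and without both shallow 6-week libraries, 7 (3 lower) when widened, and 0 to 2 without 1 library (0 without CK-p25 replicate 3). At 6 weeks the 2 calls became 1 without both shallow libraries, 4 (2 lower) when widened, and 1 to 2 without 1 library. The sum at 2 weeks stayed uncalled, from -0.21 to -0.09 without 1 library (-0.09 without CK-p25 replicate 3). The sum at 6 weeks passed the threshold with DESeq2 size factors (-0.24), in the Wald test (-0.22), with only the groups compared (-0.21) and without CK-p25 replicate 2, and ran from -0.26 to -0.16 without 1 library. The difference between the CK-p25 effects turned to 0.015 without both shallow libraries (adjusted p = 0.998). The 3 calls for the difference between the tau effects became 8 (7 lower) when widened and 3 to 4 without 1 library. Between wild type ages the 0 calls became 1 with only the groups compared, 1 with the replicate block and 0 to 1 without 1 library, and the sum passed with only the groups compared (0.082) and without wild type replicate 3 of 11 months (range 0.066 to 0.11). The replicate block left 9 domains called at 11 months. For all of these the cause was not tested. Over all alternatives 533 values of named domains kept their sign and call, 40 lost a call and 4 gained one. Another 29 changed sign while uncalled, and 0 changed sign while called.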
